A study of Mus musculus with 6 samples.

Results

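The genes described here encode proteins of cytotoxic granules and members of the serpin family of protease inhibitors: the granzymes Gzma, Gzmb and Gzmk, perforin (Prf1), the granule proteoglycan serglycin (Srgn), and the serpins Serpinb9, Serpinb6b, Serpina3g and Serpinc1. Serpinc1 is here by family only, since its product, antithrombin, is not known as a granzyme inhibitor. They are 9 of the genes in a comparison that held 12394 genes, and 8 of the 9 had a probe set annotated to that gene alone. Serpina3g was not measured by this rule and has no value below. The 9 genes were selected by name with the values of the same contrast already known, so the differences between the groups are given as a description of these genes and support nothing beyond it.

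Granzymes are serine proteases stored in the granules of cytotoxic lymphocytes. On contact with a target cell the granules fuse with the membrane, perforin opens pores, and the granzymes enter and cleave proteins of the target, granzyme B after aspartate and granzymes A and K after basic residues. Serglycin packs the positively charged granzymes inside the granule. Serpins are suicide inhibitors that trap a protease through an exposed loop, and cells that make granzymes also make intracellular serpins that protect them from leaked enzyme. Regulatory T (Treg) cells can also express granzymes, which have been linked to their killing of effector cells.

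Treg cells were sorted as CD4+CD25+YFP+ cells from spleen and lymph nodes of mice, 3 mice a group. The Gata3-deficient group came from Gata3F/F Foxp3YFP-Cre mice, in which a Cre recombinase made from the Foxp3 locus acts on floxed Gata3 alleles in Treg cells. The Gata3-sufficient group, titled WT, came from Gata3F/+ Foxp3YFP-Cre mice, so its cells also carried the Cre and had 1 floxed allele. The contrast is thus of 2 floxed alleles against 1, without a group that has no floxed allele. The labels give neither age nor sex. Each array gave log2 intensities, with array medians between 6.06 and 6.11, and 3 arrays a group limit the precision of every value. The Gata3 probe set read 9.57, 9.41 and 9.47 in sufficient replicates 1, 2 and 3 and 9.83, 9.98 and 9.71 in deficient ones. It was therefore higher, not lower, in the deficient group, a log2 change of 0.35 ± 0.07 (SE, limma adjusted p = 0.0387) that kept its call in 2 of the 6 fits that drop an array and lost it without the intensity trend of the variance (adjusted p = 0.15). The labels do not say which exons were floxed, so a probe set may lie outside the deleted stretch, the genotypes were not checked by it, and the directions given here depend on the sample titles. Of the Treg markers, Ctla4 (means 11.86 and 12.08 in sufficient and deficient arrays) and Il2ra (8.88 and 9.07), the gene of CD25, were bright, while the Foxp3 probe set was dim (3.90 and 3.94). A gene is called dim where its mean over the 6 arrays lies below the 40th percentile of all genes.

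Gzmb, Gzma and Serpinc1 were higher in the Gata3-deficient arrays, by 2.73-fold, 1.98-fold and 1.77-fold, and Gzmk, Prf1, Srgn, Serpinb9 and Serpinb6b did not pass the threshold (limma, adjusted p under 0.05 over all genes). Thus 3 of the 8 measured genes were higher, where 1.44% of all genes were (179 of 12394), and 0 were lower, where 0.766% of all genes were (95). With each array centred on its median the counts over all genes were 158 higher and 131 lower. For the same 3 genes no deficient array overlapped the sufficient ones, as for 19.8% of all genes. Since the genes were chosen with this contrast known, nothing is read from these shares. Since each array read bulk RNA of sorted cells, more positive cells and more RNA per cell cannot be told apart. The mean levels of a neutrophil and of a macrophage and monocyte marker list were also higher in the deficient arrays, with values given further below. No single marker of either list passed the threshold, and the part of these cells in the differences was not tested.

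**Figure D1:**
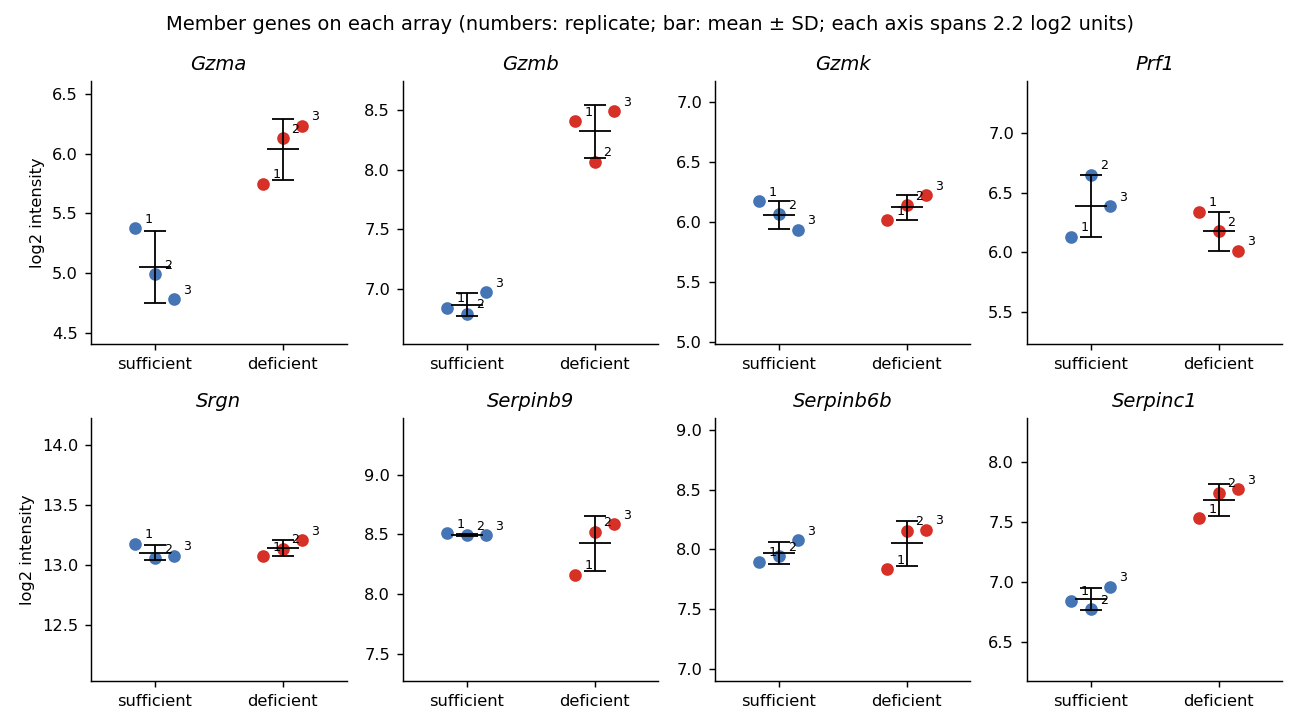
Log2 intensity of each of the 8 measured genes on the 3 Gata3-sufficient (blue) and 3 Gata3-deficient (red) arrays, with replicate numbers beside the points and bars for mean ± SD; every vertical axis spans the same number of log2 units. Gzmb, Gzma and Serpinc1 separate without overlap, with deficient means of 8.32, 6.04 and 7.69 against 6.87, 5.05 and 6.86, and the other 5 genes overlap.

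The stretches just before the transcription starts of these 3 genes are shown because they are the genes that differed. They are RefSeq sequence of GRCm38.p6, 250 bases each, 5′ to 3′ on the gene's strand: chr14:56262335-56262584 (minus strand) for Gzmb, chr13:113100982-113101231 (minus strand) for Gzma and chr1:160978333-160978582 (plus strand) for Serpinc1. Capitals mark matches to the motifs searched.
Gzmb: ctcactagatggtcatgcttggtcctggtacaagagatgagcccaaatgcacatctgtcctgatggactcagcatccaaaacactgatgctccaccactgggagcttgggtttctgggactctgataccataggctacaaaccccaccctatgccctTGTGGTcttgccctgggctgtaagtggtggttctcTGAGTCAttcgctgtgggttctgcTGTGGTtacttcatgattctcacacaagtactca
Gzma: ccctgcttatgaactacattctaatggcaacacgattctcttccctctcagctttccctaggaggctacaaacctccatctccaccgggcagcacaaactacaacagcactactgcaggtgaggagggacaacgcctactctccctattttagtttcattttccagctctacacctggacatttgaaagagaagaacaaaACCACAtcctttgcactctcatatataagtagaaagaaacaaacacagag
Serpinc1: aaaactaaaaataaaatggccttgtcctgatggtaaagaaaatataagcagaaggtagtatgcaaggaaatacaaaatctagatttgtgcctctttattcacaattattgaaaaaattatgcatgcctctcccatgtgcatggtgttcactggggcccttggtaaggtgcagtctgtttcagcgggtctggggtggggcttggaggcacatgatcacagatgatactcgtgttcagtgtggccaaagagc
Motifs of factors known from lymphocytes were searched on both strands. The GATA motif was read as the letters AGATAA, and likewise as AGATAG, and further as TGATAA, and lastly as TGATAG. RUNX was read as TGTGGT, while AP-1 was read as TGANTCA, STAT was read as TTCNNNGAA, and T-box was read as AGGTGTG. No match of one motif overlapped another in the windows shown. Gzmb held 2 RUNX matches, which begin 93 and 34 bases before the start, and between them 1 AP-1 match, which begins 58 bases before it. Gzma held 1 RUNX match, which begins 50 bases before the start, and Serpinc1 held none of the 5 motifs. The RUNX letters occurred in 14.0% of 32851 windows of the same length over all genes and the AP-1 letters in 6.75%. All 9 genes matched the promoter table, with 10 windows. RUNX matches were in 5 of the 10 windows, those of Gzma, Gzmb, Prf1, Serpina3g and 1 of 2 Srgn starts. GATA matches were in 0 of the 10, where 26.5% of all windows hold one, and T-box matches in 0, where 5.10% do. A STAT match was in 1 window, that of Serpina3g, 33 bases before the start, where 7.02% of all windows hold one. These counts describe letters in a short window and say nothing of binding.

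Gzmb, which encodes the protease that cleaves Bid and caspases, had the largest difference of the 8 genes. It read 6.85, 6.79 and 6.98 in sufficient replicates 1, 2 and 3 and 8.41, 8.07 and 8.49 in deficient replicates 1, 2 and 3. The lowest deficient array stood 1.09 log2 units above the highest sufficient one, more than the range within either group (0.18 and 0.42). The log2 change was 1.45 ± 0.11 (SE, n = 3 and 3), with a 95% interval for the fold of 2.31 to 3.22. It stayed past the threshold in each of the 6 fits with 1 array left out, at log2 changes from 1.36 to 1.57.

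Gzma, which encodes a tryptase that cleaves proteins of the SET complex, rose with a wider spread. It gave 5.38, 4.99 and 4.78 in the sufficient group against 5.75, 6.13 and 6.23 in the deficient group. The groups were 0.37 log2 units apart at their nearest arrays, sufficient replicate 1 and deficient replicate 1, less than the range within either group (0.60 and 0.48). The log2 change was 0.99 ± 0.17 (SE), with a 95% interval for the fold of 1.52 to 2.57. Its mean of 5.54 lies just under the 40th percentile of all genes (5.55), so Gzma counts as dim here. The call was lost without sufficient replicate 2 (log2 change 0.96) or 3 (0.85) and without deficient replicate 2 (0.94) or 3 (0.89), with limma adjusted p from 0.0597 to 0.11. It held without sufficient replicate 1 (1.15) or deficient replicate 1 (1.13), and was lost without the intensity trend of the variance (adjusted p = 0.0766).

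Gzmk, the neighbour of Gzma in the genome, encodes a protease with the same preference for basic residues. It gave 6.18, 6.07 and 5.94 in the sufficient group against 6.01, 6.14 and 6.22 in the deficient group, so the groups overlapped throughout. Its log2 change was 0.07 ± 0.10 (SE), and the 95% interval ran from -0.15 to 0.28, below the interval of Gzma (0.61 to 1.36). Whether the changes of Gzma and Gzmk differ was not tested, since both were chosen with this contrast known.

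The other granzyme genes of the mouse, Gzmc, Gzmd, Gzme, Gzmf, Gzmg, Gzmm and Gzmn, did not pass the threshold, 0 of 7 in either direction. Their limma adjusted p values were 0.706 to 0.954, with 0 at an unadjusted p under 0.05, where 14.4% of all genes were. Their log2 changes lay between -0.10 and 0.11, with a median of -0.07 beside a median of 0.01 over all genes. All 7 lay on dim probe sets, with means over the 6 arrays from 2.51 to 5.55, so a difference at low transcript levels may have gone undetected. A further probe set annotated to both Gzmd and Gzme read 2.68 in sufficient and 2.74 in deficient arrays.

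Prf1 and Srgn, whose products open the target membrane and hold granzymes in the granule, did not pass. Prf1 was at 6.13, 6.65 and 6.39 in sufficient mice and 6.34, 6.18 and 6.02 in deficient mice. The groups overlapped, and the log2 change was -0.21 ± 0.14 (SE, 95% interval -0.52 to 0.09). Its other probe set, of lower mean, read 5.79 and 5.67 in sufficient and deficient arrays, a log2 change of -0.12 ± 0.09 (SE) in a fit of all probe sets. The Prf1 change had a negative sign on both probe sets, but the interval of the brighter one spans both signs, so no direction is read from it. Srgn, among the brightest genes on these arrays, stood at 13.18, 13.05 and 13.08 on the sufficient arrays and at 13.07, 13.14 and 13.21 on the deficient arrays. Its 95% interval, -0.07 to 0.14 in log2 units, corresponds to a change between -4.81% and 10.4%.

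**Figure D2:**
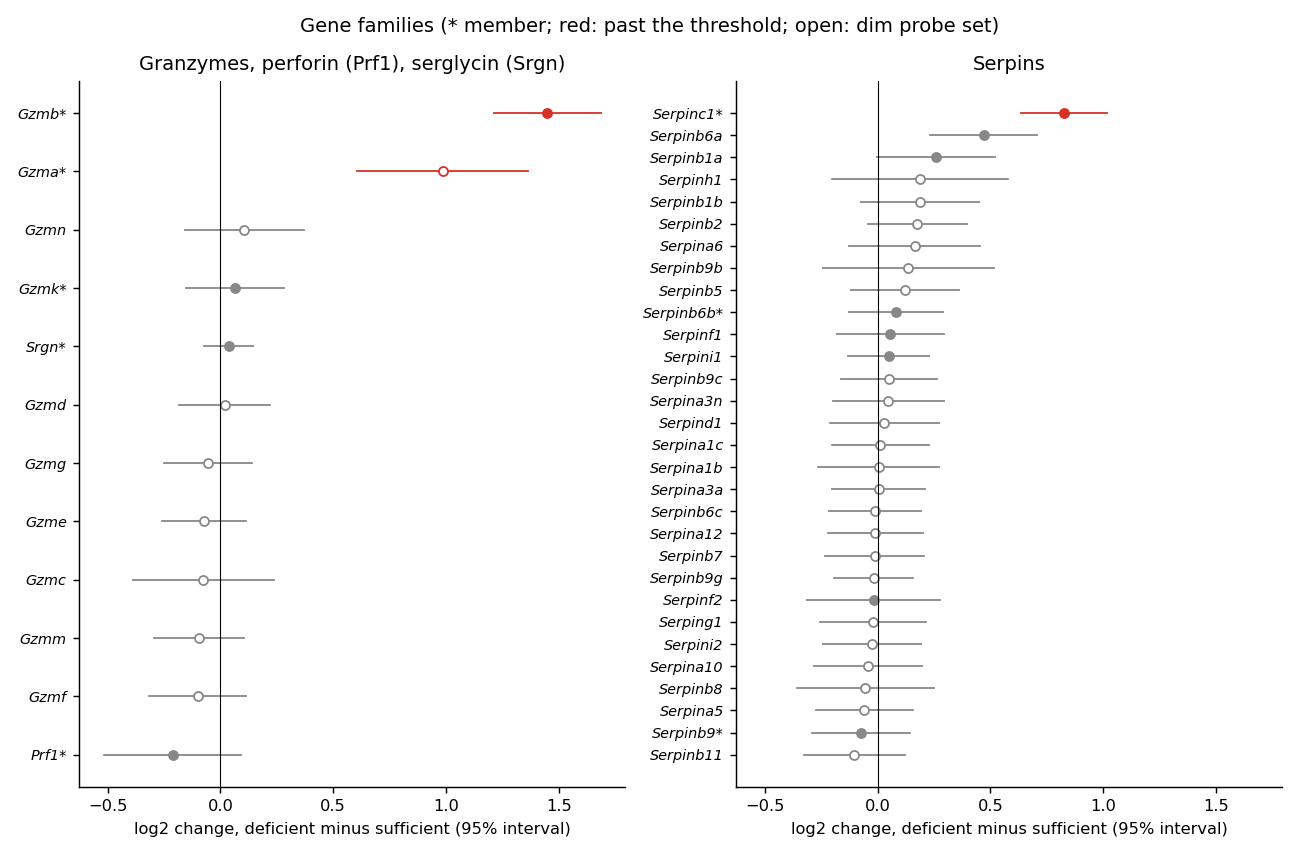
Log2 change (Gata3-deficient minus Gata3-sufficient) with limma's 95% interval for the 10 measured granzyme genes with Prf1 and Srgn (left) and for 30 measured serpin genes (right), sorted by size; an asterisk marks the genes chosen for description, red marks genes past the threshold and open circles dim probe sets. Gzmb (1.45), Gzma (0.99) and Serpinc1 (0.83) are the ones past the threshold, and Serpinb6a (0.47) is the next highest.

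Among the serpins known to inhibit granzymes, Serpinb9, the inhibitor of granzyme B, did not pass. It gave 8.51, 8.50 and 8.49 in the sufficient group against 8.16, 8.52 and 8.59 in the deficient group, so deficient replicate 1 alone lay below the rest. The log2 change was -0.07 ± 0.10 (SE), and without that array it was 0.06. Serpinb6b, which inhibits mouse granzyme A, was at 7.89, 7.94 and 8.07 in sufficient mice and 7.84, 8.16 and 8.16 in deficient mice. Its log2 change was 0.08 ± 0.09 (SE, 95% interval -0.13 to 0.29). For both inhibitors deficient replicate 1 was the lowest of the 6 arrays, while Gzmb on that array read 8.41. As percent changes the 95% intervals run from -18.3% to 10.5% for Serpinb9 and from -8.48% to 22.3% for Serpinb6b.

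Serpinc1 encodes antithrombin, a plasma inhibitor of thrombin and factor Xa that is made mainly by the liver. It stood at 6.85, 6.77 and 6.96 on the sufficient arrays and at 7.54, 7.75 and 7.78 on the deficient arrays. The nearest arrays of the 2 groups were 0.58 log2 units apart, more than the range within either group (0.19 and 0.24). The log2 change was 0.83 ± 0.09 (SE), with a 95% interval for the fold of 1.55 to 2.02, and the call held in each of the 6 fits with 1 array left out. Markers of the liver, including the plasma serpin genes Serpina1b and Serpina1c, overlapped between the groups (list means 4.38 to 4.46 and 4.27 to 4.56), and 0 of 7 passed. Of 12 further genes of blood coagulation, fibrinolysis and their control, 0 passed in either direction (limma, 1 at an unadjusted p under 0.05, beside 14.4% of all genes), and all 12 were dim.

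Besides these, 27 serpin genes were measured, and 0 passed the threshold in either direction (limma, 1 at an unadjusted p under 0.05, beside 14.4% of all genes). Their median log2 change was 0.01, as it was over all genes, and 22 of them were dim. The gene with the smallest p of the 27 was Serpinb6a, which encodes an intracellular inhibitor of trypsin-like proteases and cathepsin G. Sufficient arrays read 8.74, 8.35 and 8.30 and deficient arrays 9.01, 8.85 and 8.95, without overlap. Its log2 change of 0.47 ± 0.11 (SE) had a limma adjusted p of 0.0537 and lay past the threshold in 1 of 6 fits with 1 array left out, the fit without sufficient replicate 1. With the replicate number as a block it also passed (adjusted p = 0.0139). Serpinb1a, an elastase inhibitor, had a log2 change of 0.26 ± 0.12 (SE, adjusted p = 0.355).

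The position of the genes was read from the order of protein-coding genes in RefSeq's GRCm38.p6 annotation. The 5 genes on one side of Gzmb were Gzmd, Gzmg, Gzmn, Gzmf and Gzmc, members of its own cluster, with log2 changes from -0.10 to 0.11. Of 9 measured genes within 5 places of Gzmb, 0 passed in either direction, beside 2.21% of all genes. Of 5 measured genes within 5 places of Gzma, Gzmk among them, 0 passed, with changes from -0.21 to 0.12. Serpinb9 and Serpinb6b are direct neighbours within a cluster that also holds Serpinb1a, Serpinb9b, Serpinb1b and Serpinb9c, and 0 of the 6 measured genes around either passed. Around Serpinc1 0 of 5 passed, with changes from -0.24 to 0.07. At that share over all genes, counts of 0 in sets this small say nothing particular about these neighbourhoods.

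Granzymes are made as inactive precursors that cathepsin C activates in the granule. Of 12 measured genes of granzyme processing and the granule matrix, 1 rose and 1 fell, beside 1.44% higher and 0.766% lower over all genes. Their median log2 change was 0.03 beside 0.01, and 5 had an unadjusted p under 0.05 (limma), beside 14.4% of all genes. Cst7, which encodes cystatin F, an inhibitor of cathepsin C, gave 9.85, 9.35 and 9.43 in the sufficient group against 10.46, 10.16 and 10.17 in the deficient group. Its log2 change was 0.72 ± 0.12 (SE, limma adjusted p = 0.0214), and the groups did not overlap. Igf2r, a mannose 6-phosphate receptor that sorts granule proteases and binds granzyme B at the cell surface, fell by 0.23 (SE 0.04, adjusted p = 0.0307). Each kept its call in 2 of 6 fits with 1 array left out. Cst7 lost it without sufficient replicate 2 or 3 or deficient replicate 1 or 2 (adjusted p up to 0.107), and Igf2r without sufficient replicate 2 or 3 or deficient replicate 2 or 3 (up to 0.146). Without the intensity trend both calls were lost (adjusted p = 0.104 and 0.157). Ctsc, the gene of cathepsin C itself, had a log2 change of 0.21 ± 0.06 (SE, adjusted p = 0.102), and Ctsl one of -0.58 ± 0.14 (adjusted p = 0.0674). Nkg7, a granule membrane protein, had a change of 0.03, Lamp1 of 0.02 and Fasl of 0.04.

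Granules must dock at the membrane before release. In that list 0 of 13 measured genes rose and 1 fell, beside the same 1.44% and 0.766% over all genes, and the median log2 change was -0.02. Sytl2, which encodes a synaptotagmin-like protein that binds Rab27a on granules, fell by 1.01 (SE 0.05, limma adjusted p = 9.07e-05), from 8.35, 8.33 and 8.37 to 7.33, 7.36 and 7.34, and the call held whichever array was left out. Vamp8, a vesicle SNARE, had a change of 0.15 (adjusted p = 0.187) and Rab27a, on a dim probe set, of -0.18 (0.587). Of 18 measured granzyme substrates 0 passed (limma, 4 at an unadjusted p under 0.05, beside 14.4% of all genes), with log2 changes from -0.26 (Prkdc) to 0.30 (Lmnb1) and a median of 0.04.

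Of 25 measured transcription factors linked to granzyme expression, 0 rose and 3 fell, beside 1.44% and 0.766% over all genes, with a median log2 change of -0.02. Tbx21, the gene of T-bet, a known activator of cytotoxic genes, was at 6.63, 6.77 and 6.51 in sufficient mice and 5.98, 5.85 and 6.16 in deficient mice. Its log2 change was -0.63 ± 0.10 (SE, limma adjusted p = 0.0185), opposite in sign to Gzmb and Gzma. Id3, an inhibitor of E proteins, fell by 0.60 (SE 0.05, adjusted p = 0.00115), and Bach2, a repressor of effector genes, by 0.36 (SE 0.06, adjusted p = 0.0185). Leaving out any 1 of the 6 arrays kept the call of Id3. Tbx21 kept its call in 4 of these fits and missed it when replicate 2 of either group was dropped (adjusted p up to 0.105). Bach2 kept its call in 3 and missed it when replicate 2 of either group or deficient replicate 3 was dropped (up to 0.0935). Without the intensity trend Tbx21 and Bach2 lost their calls (adjusted p = 0.0581 and 0.1). At an unadjusted p under 0.05 were 8 of the 25 (limma), these 3 among them, beside 14.4% of all genes. The others were Foxo1 (-0.15), Lef1 (-0.18), Runx1 (-0.17), Bcl6 (-0.17) and Batf (0.15), with adjusted p from 0.106 to 0.336. Eomes, on a dim probe set, had a change of -0.10, Runx3 of 0.04, Prdm1 of 0.02, Stat5a of 0.08 and Stat5b of -0.02, and none of these passed.

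Interleukins 2 and 15, interleukin 12 and type I interferon are known to induce granzymes. Of 11 measured receptor genes 0 rose and 1 fell, beside 1.44% and 0.766% over all genes. At an unadjusted p under 0.05 were 4 of the 11 (limma), beside 14.4% of all genes. The gene that fell was Ifnar1, which encodes a chain of the type I interferon receptor, by 0.27 (SE 0.05, limma adjusted p = 0.0398). That call was lost in each of the 6 fits with 1 array left out (adjusted p from 0.0697 to 0.168) and without the intensity trend (0.14). Ifnar2, the gene of the other chain of that receptor, had a change of opposite sign, 0.18 (SE 0.06, adjusted p = 0.151), and did not pass. Il18r1 had a change of 0.24 (SE 0.08, limma adjusted p = 0.167) and Il2ra one of 0.20 (adjusted p = 0.121). Il2rb, the chain shared by the interleukin 2 and 15 receptors, had a change of -0.03, and Il12rb2, dim, one of -0.18.

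**Figure D3:**
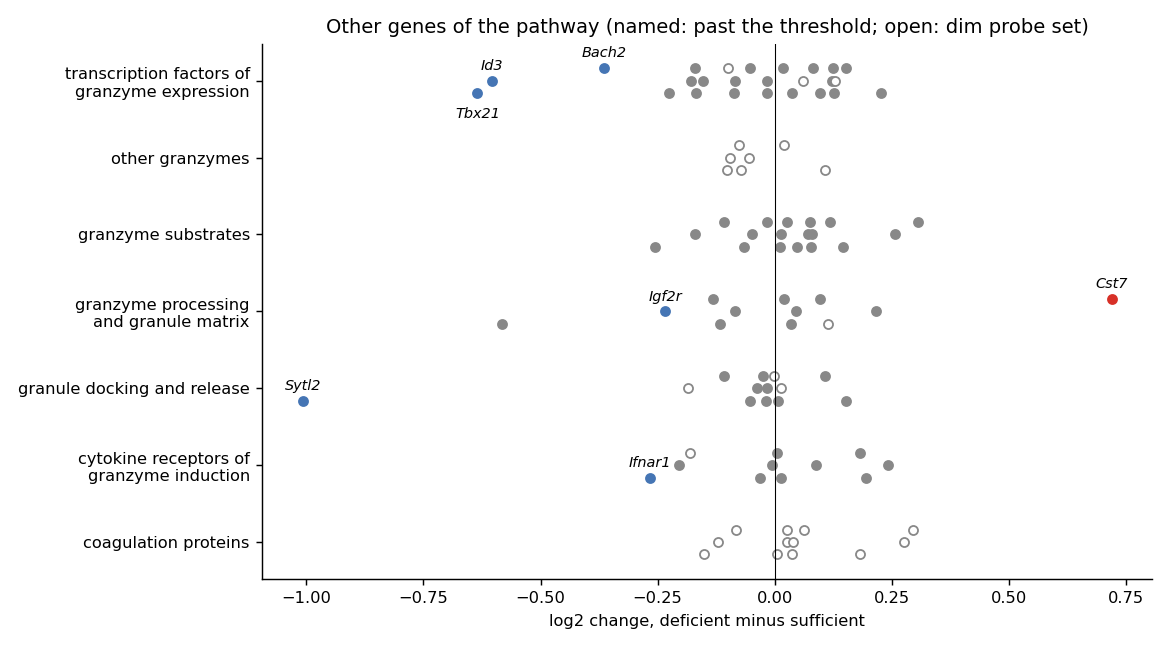
Log2 change (Gata3-deficient minus Gata3-sufficient, horizontal axis) of the other measured genes of the pathway, 1 row of points for each list; red points rose and blue points fell past the threshold and are named, grey points did not pass, and open circles are dim. Cst7 is the 1 gene that rose, and Sytl2, Tbx21, Id3, Bach2, Ifnar1 and Igf2r fell.

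Some other cells that a sort could carry over make granzymes too. Markers of 11 cell types and tissues were therefore read, as the mean log2 level of each list on each array. The lists were not limited to cells that make granzymes, and Treg cells and liver are among them. The lists of neutrophils, of macrophages and monocytes and of Treg cells did not overlap between the groups, and the other 8 did. Neutrophil markers ranged from 4.54 to 4.65 in sufficient and from 4.69 to 5.13 in deficient arrays, with 12 of 12 changes positive, 0 past the threshold and 11 dim. S100a9, with the largest change among them, read 4.44, 4.77 and 5.02 against 5.10, 5.83 and 6.59. Macrophage and monocyte markers ranged from 4.45 to 4.57 and from 4.61 to 4.71, with 10 of 13 changes positive, 0 past the threshold and 11 dim. Lyz2, with the largest change among them, read 6.54, 5.79 and 6.19 against 6.55, 7.44 and 7.60. Vcan (-0.14), Itgam (-0.10) and Ms4a7 (-0.02) had negative changes. Over all genes 53.0% of changes were positive. The part of these cells in the granzyme values was not tested.

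Markers of NK cells and group 1 innate lymphoid cells, the cells best known for Gzmb, Gzma and Prf1, ranged from 5.09 to 5.29 in sufficient and from 5.01 to 5.23 in deficient arrays. Of the 15 measured, 7 had a positive change and 0 passed (limma, 5 at an unadjusted p under 0.05, beside 14.4% of all genes). Their defining receptor Ncr1 was dim, at means of 4.14 and 4.17, and Klrk1 (-0.57 ± 0.17, SE) and Klrd1 (-0.71 ± 0.23) had negative changes. Tyrobp (0.48 ± 0.17) and Fcer1g (0.31 ± 0.11), signalling adaptors that myeloid cells express too, had positive ones. The groups did not overlap for Klrk1, Klrd1, Fcer1g and Klra1, a dim gene with a change of -0.20, as for 19.8% of all genes. CD8 T cell markers ranged from 5.73 to 5.85 and from 5.43 to 5.76, but Klrk1, Klrc1 and Eomes of this list are also in the NK list. Klrc1, dim, read 4.21 on deficient replicate 1, the array with the list value of 5.43. Cd8a was dim at 4.79 and 4.87, and Cd8b1, the gene of the other CD8 chain, was not dim at 6.63 and 6.65. Mast cell and basophil markers had 11 of 13 positive changes and 0 past the threshold, and the deficient arrays, from 4.51 to 4.84, spanned the sufficient ones. Plasmacytoid and conventional dendritic cell markers ranged from 5.69 to 5.78 and from 5.64 to 5.72. Among B and plasma cell markers 5 of 13 changes were positive and 8 negative, and the list ranged from 6.15 to 6.30 and from 6.16 to 6.26. Cd22 (1.15 ± 0.11) was the 1 gene of the list past the threshold, beside 1.44% higher over all genes. Jchain had the largest negative change (-0.78 ± 0.26, limma adjusted p = 0.179). The markers of gamma delta T cells (2 measured) and erythroid cells (4 measured) had 0 past the threshold. The Treg list itself had 12 of 13 positive changes and ranged from 9.29 to 9.35 and from 9.37 to 9.43. In it 1 gene rose and 1 fell past the threshold, beside 1.44% and 0.766% over all genes. At an unadjusted p under 0.05 were 7 of the 13 (limma), beside 14.4% of all genes. Nrp1, the gene of neuropilin 1, fell by 0.77 (SE 0.07, limma adjusted p = 0.00152), and Tnfrsf4, the gene of OX40, rose by 0.32 (SE 0.05, adjusted p = 0.0186).

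**Figure D4:**
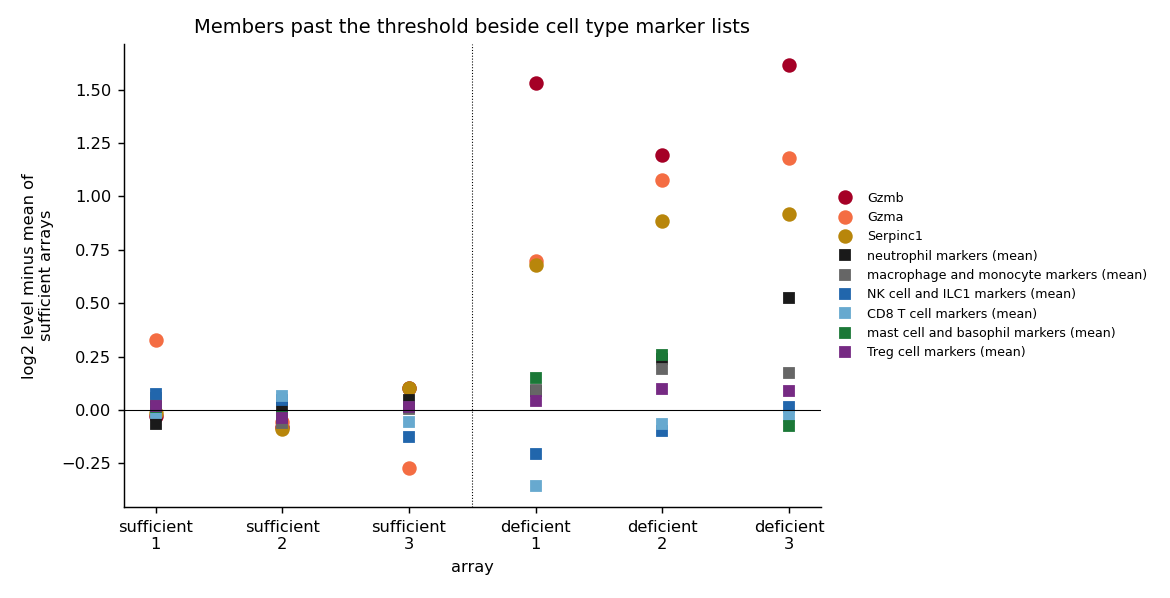
Level on each array (horizontal axis, replicates in no order) minus the mean of the 3 Gata3-sufficient arrays, in log2 units, for Gzmb, Gzma and Serpinc1 (circles) and for the mean of 6 marker lists (squares). Gzmb stands at 1.53, 1.20 and 1.62 in deficient replicates 1, 2 and 3. Gzma stands at 0.70, 1.08 and 1.18 there and Serpinc1 at 0.68, 0.89 and 0.92. The neutrophil list stands at 0.09, 0.24 and 0.52, but as a mean over 12 genes, 11 of them dim. The sizes of circles and squares are thus not comparable. S100a9, with the largest change of that list, read 4.44, 4.77 and 5.02 in sufficient and 5.10, 5.83 and 6.59 in deficient arrays. The part of these cells in the granzyme values was not tested.

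The genes whose profiles were closest to Gzmb and Gzma were found by the root mean square difference of log2 values over the 6 arrays, each gene centred on its own mean. Baiap3, a relative of the Munc13 exocytosis proteins, was the closest to Gzmb (difference 0.29), followed by Cd22 (0.30), Cxcl10 (0.30), Hfe (0.34) and Serpinc1 (0.35). Plac8, a small cysteine-rich protein gene of myeloid and lymphoid cells, was the closest to Gzma (0.14), followed by Baiap3 (0.14), Cd22 (0.16), App (0.19) and Cpq (0.19). Plac8 stood at 8.48, 8.21 and 8.15 on the sufficient arrays and at 8.94, 9.10 and 9.20 on the deficient arrays, so sufficient replicate 1 was the highest and deficient replicate 1 the lowest of its group for both Plac8 and Gzma. With 2 groups of 3 arrays, a small difference mainly means a difference between the groups of like size.

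**Figure D5:**
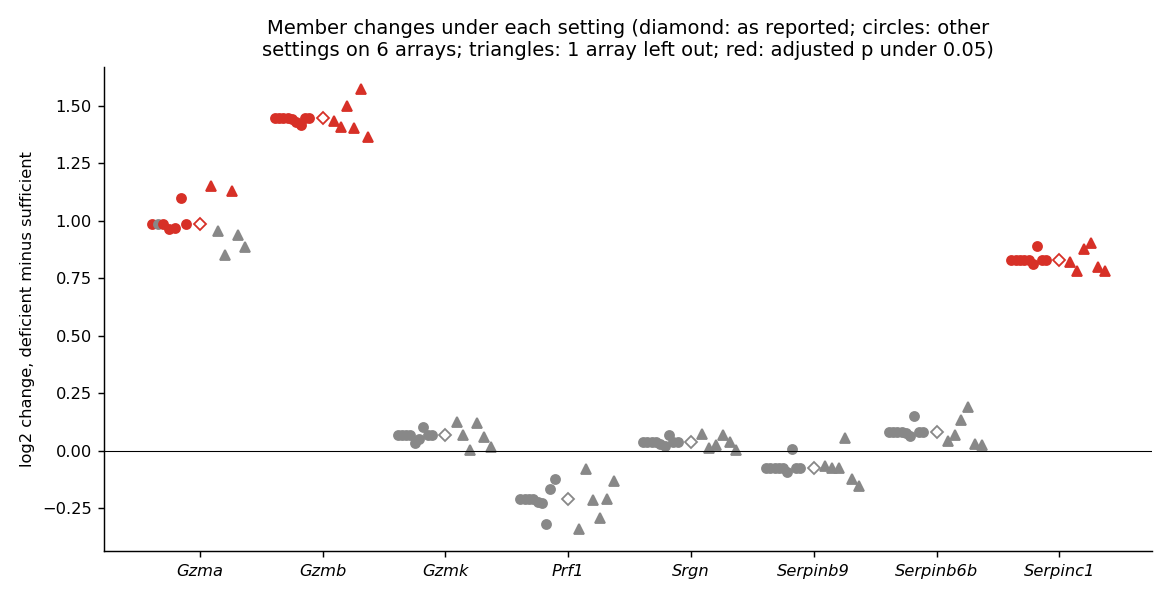
Log2 change (vertical axis) of the 8 genes as reported (diamonds), under the other settings with all 6 arrays (circles) and with 1 array left out (triangles); red marks an adjusted p under 0.05 in that fit. Gzmb and Serpinc1 are red throughout, Gzma turns grey in 4 of the 6 fits with 1 array left out and without the intensity trend, and the other 5 genes stay grey.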

How the data were processed

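Gene expression was measured on 6 Affymetrix arrays from biotin-labelled cRNA. The authors deposited log2 intensities of 22690 probe sets, made with RMA per the submitters' processing notes (no version given). RMA combines a background correction, quantile normalization and a summary over probes, and can shrink differences of dim probe sets. The log2 scale was read from the range of the values. Probe sets were named by the platform's annotation (20393 with 1 gene), and each gene was represented by its brightest probe set on average. Detection calls were not used here; a gene is called dim where its mean lies below the 40th percentile of all 12394 genes (5.55).

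The comparison was fitted over all genes with limma 3.58.1 in R 4.3.3, using lmFit and eBayes with an intensity trend, deficient minus sufficient, two-sided, with Benjamini-Hochberg adjustment and a threshold of 0.05. Errors are SDs over 3 arrays or limma's SEs. The fit was tested on simulated data. Figures used Python 3.11.15 and matplotlib 3.10.9.

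The genes described and the pathway and marker lists were chosen with earlier results of these data known. Named are all chosen genes, list genes past the threshold or with the smallest p, markers that define a cell type, and the 5 nearest profiles to Gzmb and to Gzma, without predicted genes. Genes named beside these that did not pass were chosen after values were seen, as were the neighbour and motif counts. Such genes are Nkg7, Lamp1, Fasl, Eomes, Runx1, Runx3, Prdm1, Stat5a, Stat5b, Foxo1, Lef1, Bcl6, Batf, Rab27a, Il2rb, Il12rb2, Il18r1 and Ifnar2. Same-numbered arrays did not deviate together (correlations 0.04, -0.02 and 0.07 over genes for replicates 1, 2 and 3), so no pairing was used in the comparison. Other settings tried were a replicate block, no trend, robust variance, dim genes left out, renewed quantile normalization, median centring, array weights, other probe set rules, other thresholds and each array left out.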

Additional observations from a re-analysis of the deposited data

How the results depend on the processing

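Gzmb and Serpinc1 kept their calls in all 9 other settings with 6 arrays and in all 6 fits with 1 array left out, with Gzmb between 1.36 and 1.57 and Serpinc1 between 0.78 and 0.90. Gzma, whose losses are given above, also failed an adjusted p under 0.01, and could not be tested with dim genes left out or without probe sets ending in x, s or a, which remove its 1 probe set. Gzmk, Prf1, Srgn and Serpinb6b kept their sign and passed in none of these fits. The change of Serpinb9, -0.07, was 0.0079 with array weights and between -0.15 and 0.056 with 1 array left out (0.056 without deficient replicate 1). With the replicate block 3 of the 8 genes were higher and 234 and 134 of all genes higher and lower, and the block changed no call of the 8 genes.

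Over all genes the counts of 179 higher and 95 lower were 31 and 23 without the intensity trend, 400 and 185 with array weights, 34 and 23 at an adjusted p under 0.01, and 343 and 182 under 0.10. With 1 array left out they lay between 35 and 165 higher and between 24 and 105 lower, with low values without sufficient replicate 2 (38 and 24), deficient replicate 2 (35 and 27) and deficient replicate 3 (51 and 51), and 54 lower without sufficient replicate 3. The cause was not tested beyond the smaller number of arrays. Signal over background could not be read, so changes of dim genes may be understated.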
